A study of Mus musculus with 2 samples.

Results

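Runx1 peaks were examined around 8 genes that encode DNA-binding factors of the Ikaros and Ets families, namely Ikzf1, Ikzf2, Ikzf3, Ets1, Ets2, Fli1, Elf1 and Gabpa. A peak was taken when its centre lay in the body of one of these genes or within 100 kb of either end of it, in the GENCODE annotation of NCBIM37 (mm9). This gave 9 peaks of the 3531 in the deposited Runx1 list. The peaks come from CD4+CD8+ double-positive (DP) cells sorted from the thymus of C57BL/6 mice, sequenced as 1 library after Runx1 immunoprecipitation and 1 library of input chromatin. Neither the age, the genotype nor any treatment of the mice is given in the labels, and the catalogue number of the Runx1 antibody differs between the labels and the study's methods. With 1 library per condition there is no spread between replicates, so positions, counts and shares are described without a test between conditions. No reads were counted in these files, and the sequencing depth is therefore unknown. A list of peaks holds no transcript levels, and the identity of the cells could not be checked against marker genes here.

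Runx1 is the DNA-binding chain of core binding factor and recognises the RUNX motif TGTGGT. The Ikaros family proteins Ikaros (Ikzf1), Helios (Ikzf2) and Aiolos (Ikzf3) are zinc-finger factors of the lymphoid lineage. The Ets family proteins share a winged-helix domain that reads a GGAA core, and Ets1 is known to bind next to Runx1 at composite sites in T-cell receptor gene enhancers. Fli1 is an Ets factor of blood stem cells, megakaryocytes and lymphocytes, Elf1 is expressed in lymphoid cells, and Gabpa is the DNA-binding subunit of GABP.

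Of the 9 peaks, 7 are printed here, because they carry the RUNX motif or have the highest score, ties included, of their gene. The first lies upstream of Ikzf2, the next downstream of Ikzf3, and the other 5 at Fli1 and Ets1. All are the plus strand of mm9, 5′ to 3′, and capitals mark TGTGGT or its variant TGCGGT, on either strand, so that ACCACA is TGTGGT read from the minus strand.
Ikzf2, 82990 bp upstream, chr1:69815431-69815617: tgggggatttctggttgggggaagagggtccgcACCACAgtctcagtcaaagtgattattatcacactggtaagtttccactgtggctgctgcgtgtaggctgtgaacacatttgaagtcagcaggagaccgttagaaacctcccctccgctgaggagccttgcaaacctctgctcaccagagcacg
Ikzf3, downstream, chr11:98320600-98320786: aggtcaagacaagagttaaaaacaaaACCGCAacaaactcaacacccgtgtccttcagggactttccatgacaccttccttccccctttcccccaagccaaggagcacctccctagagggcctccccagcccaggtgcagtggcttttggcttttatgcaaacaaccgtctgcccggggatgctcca
Fli1, intron 1, chr9:32317388-32317574: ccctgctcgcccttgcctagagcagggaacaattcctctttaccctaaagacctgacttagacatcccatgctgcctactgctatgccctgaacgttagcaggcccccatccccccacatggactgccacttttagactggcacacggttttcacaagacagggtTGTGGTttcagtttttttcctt
Fli1, intron 1 near the TSS, chr9:32346870-32347056: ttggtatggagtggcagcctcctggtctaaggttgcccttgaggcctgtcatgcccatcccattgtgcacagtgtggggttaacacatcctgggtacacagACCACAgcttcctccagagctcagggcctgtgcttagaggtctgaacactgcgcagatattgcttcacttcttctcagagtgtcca
Fli1 and Ets1, intergenic, chr9:32379327-32379513: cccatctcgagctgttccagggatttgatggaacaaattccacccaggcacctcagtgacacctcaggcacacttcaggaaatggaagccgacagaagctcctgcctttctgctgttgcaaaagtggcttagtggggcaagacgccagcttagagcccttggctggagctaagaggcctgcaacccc
Ets1, intron, chr9:32553621-32553807: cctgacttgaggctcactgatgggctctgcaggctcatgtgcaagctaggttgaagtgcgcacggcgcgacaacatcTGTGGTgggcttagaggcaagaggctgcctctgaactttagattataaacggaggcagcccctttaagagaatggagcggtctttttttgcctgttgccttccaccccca
Ets1, downstream, chr9:32623229-32623415: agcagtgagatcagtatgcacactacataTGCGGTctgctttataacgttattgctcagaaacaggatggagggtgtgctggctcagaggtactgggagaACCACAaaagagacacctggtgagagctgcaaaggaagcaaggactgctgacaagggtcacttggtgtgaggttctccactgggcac

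Of the 8 genes, 4 had a Runx1 peak in their window, namely Ikzf2, Ikzf3, Ets1 and Fli1, and 4 had none, namely Ikzf1, Ets2, Elf1 and Gabpa. Among the 22367 protein-coding genes of the annotation, 38.5% had at least 1 peak by the same rule. The share was 40.1% among the 9995 genes whose window was at least as long as the shortest of the 8, so a count of 4 in 8 was near the background. Fli1 had 5 peaks in its window and Ets1 had 4. Fli1 and Ets1 lie next to each other on chromosome 9, 94831 bp apart, and 2 of the 9 peaks fell in both windows. The 7 peaks at Fli1 and Ets1 were spread over 363 kb from the first to the last centre, and the remaining 2 peaks lay at Ikzf2 and Ikzf3.

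**Figure D1:**
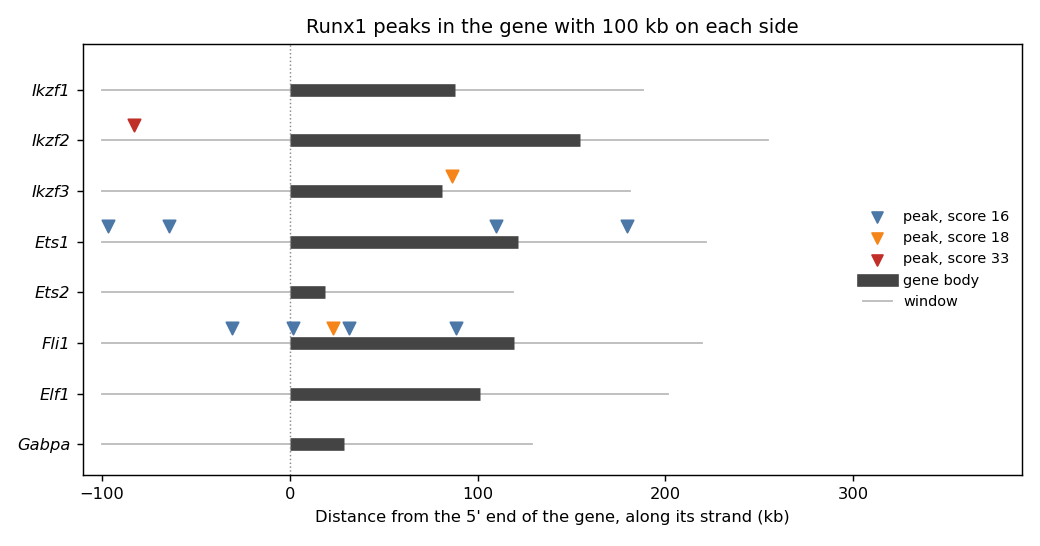
Runx1 peak centres (triangles) in the window of each of the 8 genes, drawn to scale along the strand of the gene in kb from its 5' end. Dark bars are gene bodies, thin lines the 100 kb on each side, and the colour gives the score: 6 of the 9 peaks have a score of 16, 2 have 18 and the peak upstream of Ikzf2 has 33. The 2 peaks upstream of Ets1 are drawn again in the Fli1 row, in and just upstream of that gene.

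Fli1 (ENSMUSG00000016087.6, chromosome 9, 32229793 to 32348974, minus strand) held 4 peaks inside its body and 1 upstream. The peak nearest to its TSS was centred 2011 bp downstream of it, in intron 1 of 8, with a score of 16. It was the 1 peak of the 9 within 5 kb of a TSS of any of the 8 genes, and 5.12% of all protein-coding genes had a peak that near. Intron 1 held 2 further peaks, 1 with a score of 18 and 1 with a score of 16 that lay 31493 bp downstream of the TSS. The last lay in intron 4, 88578 bp downstream of the TSS, with a score of 16. Upstream of Fli1, a peak with a score of 16 was centred 30446 bp from the TSS, between Fli1 and Ets1. A window with at least 5 peaks was found for 0.644% of protein-coding genes, a minimum that was set after the count at Fli1 was known.

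Ets1 (ENSMUSG00000032035.7, chromosome 9, 32443806 to 32565405, plus strand) is annotated with 2 coding TSSs. Of its 4 peaks, 1 lay inside the gene, in the intron before the penultimate exon, 50087 bp downstream of the nearer TSS. Another was centred 57917 bp beyond the 3′ end of the gene, where no other protein-coding TSS was closer than that of Ets1. The other 2 are the peak between the genes, 64386 bp upstream of the distal Ets1 TSS, and the peak in Fli1 intron 1, 96843 bp upstream of it. All 4 peaks had a score of 16. At least 4 peaks were found in the window of 1.52% of protein-coding genes, again a minimum set after the count was known, and the 2 member genes that reached it are neighbours that share peaks. A peak centre lay inside the body of 2 of the 8 genes, Fli1 and Ets1, as compared with 6.49% of all protein-coding genes, and the body of Fli1 (119182 bp) and of Ets1 (121600 bp) is long next to the median of 15.4 kb over all coding genes.

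Ikzf2 (ENSMUSG00000025997.7, chromosome 1, 69577788 to 69732534, minus strand), which encodes Helios, had 1 peak, 82990 bp upstream of its TSS. With a score of 33 it was the highest of the 9, and 328 of the 3531 Runx1 peaks scored higher. The nearest coding TSS to this peak was that of Spag16, 58038 bp away. Ikzf3 (ENSMUSG00000018168.8, chromosome 11, 98326216 to 98407345, minus strand), which encodes Aiolos, had 1 peak with a score of 18, centred 5523 bp beyond its 3′ end and 86421 bp from its TSS. The window of Ikzf3 is shared with 11 other protein-coding genes, and the TSS nearest to this peak was that of Grb7, an adaptor protein of receptor signalling, 12545 bp away. Over the 9 peaks, the nearest coding TSS was that of Fli1 or Ets1 for 6 and that of a gene outside the 8 for 3. The third of these is the peak of Fli1 intron 4, for which the TSS of the potassium channel gene Kcnj1 was 58826 bp away.

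The 4 genes without a peak differed in how far the nearest one lay. At Ikzf1 (ENSMUSG00000018654.10, chromosome 11, 11585006 to 11672929, plus strand), which encodes Ikaros, the nearest peak was 120569 bp upstream of the most distal of its 8 coding TSSs. It had a score of 21 and a TGTGGT match, and the TSS of 4930512M02Rik was nearer to it, at 63390 bp. A second peak, with a score of 16 and a TGTGGT match, lay 163011 bp upstream of Ikzf1. At Ets2 (ENSMUSG00000022895.8, chromosome 16, 95923682 to 95942658, plus strand), 4 peaks followed each other between 106424 and 197095 bp beyond the 3′ end of the gene, with scores of 16, 23, 33 and 16. The first of these was nearer to the TSS of Ets2 than to any other coding TSS, whereas the other 3 were nearer to Psmg1. At Elf1 (ENSMUSG00000036461.8, chromosome 14, 79881001 to 79982283, plus strand) the nearest peak lay 187633 bp upstream, had a score of 16 and no TGTGGT, and was 8074 bp from the TSS of 1190002H23Rik. Gabpa (ENSMUSG00000008976.9, chromosome 16, 84835170 to 84864024, plus strand) was farthest from a peak, with 580393 bp from its TSS to a peak with a score of 16.

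Ranked by the distance from the nearest TSS of the gene to a peak centre, the order was Fli1, Ets1, Ikzf2, Ikzf3, Ikzf1, Ets2, Elf1 and Gabpa. The median of the 8 distances was 103495 bp, as compared with 177394 bp over all protein-coding genes. Of all protein-coding genes, 96.3% were at least as far from a peak as Fli1, 78.1% as Ets1, 69.0% as Ikzf2, 68.1% as Ikzf3, 59.9% as Ikzf1, 59.8% as Ets2, 48.4% as Elf1 and 19.0% as Gabpa. Ikzf1 and Ets2 thus lay at nearly the same place in this order. At the limit of the window, the outermost peak taken was that 96843 bp from the Ets1 body and the nearest peak left out was that 106424 bp from the Ets2 body, both with a score of 16 and a TGTGGT match. Since depth is not known, a window without a peak in this list does not show that Runx1 was absent from it.

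**Figure D2:**
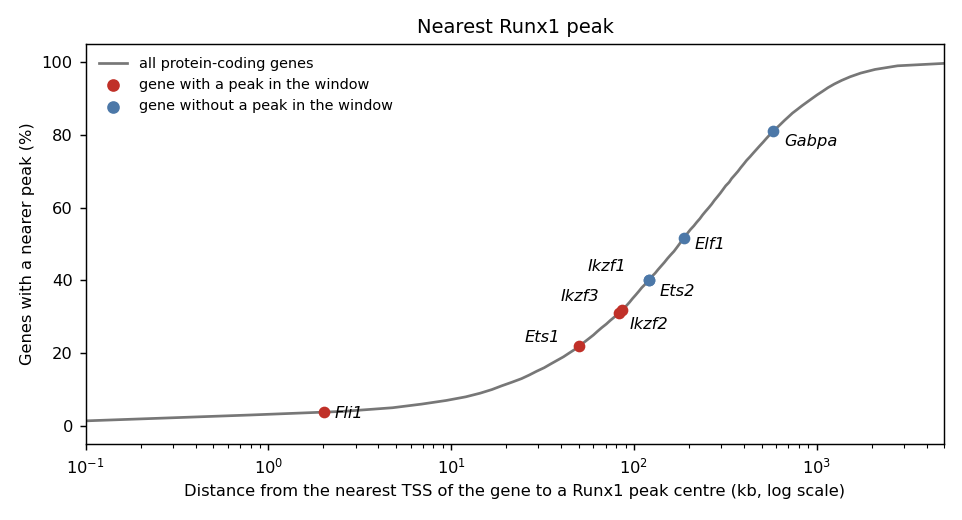
Distance in kb (log scale) from the nearest TSS of a gene to a Runx1 peak centre, against the percentage of the 22367 protein-coding genes with a nearer peak. The line is the distribution over all protein-coding genes, and the points are the 8 genes, from Fli1 at 2011 bp to Gabpa at 580393 bp.

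The score is a value of the authors whose meaning the files do not name, and it was used only to rank peaks within the list. The list runs from 14 to 129 with a median of 18 and holds no score between 16 and 18. Of the 9 peaks, 6 had a score of 16 (66.7%), as compared with 1508 of all 3531 Runx1 peaks (42.7%). The Ikzf2 peak was the 1 peak of the 9 above the median of the list (11.1%), as compared with 38.7% of all peaks. The peaks at Fli1 and Ets1 were at the low end of the scores, with 6 of 7 at 16 and 1 at 18.

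In a search of both strands up to 100 bp from the centre, 6 of the 9 peaks held the RUNX motif TGTGGT, or 66.7% (exact Clopper-Pearson 95% confidence interval 29.9 to 92.5%). Over all 3531 Runx1 peaks the share was 26.5% (25.0 to 28.0%). In windows of the same width 1 kb to the left and right of the 9 peaks, 0 of 18 held it, as compared with 14.6% of such windows around all Runx1 peaks. These intervals cover counting error only, and 7 of the 9 peaks come from 1 stretch of chromosome 9. The 6 matches lay between 9.5 and 74.5 bp from the centre, 3 on each strand. They were found in the Ikzf2 peak, in the 3 peaks of Fli1 intron 1, and in the Ets1 peaks inside and downstream of the gene. The Ikzf3 peak held the variant TGCGGT on the minus strand, and with either form 77.8% of the 9 peaks had a match (40.0 to 97.2%), as compared with 33.6% of all peaks. The Fli1 intron 4 peak and the peak between Fli1 and Ets1 held neither form.

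The ETS motif, searched as CGGAAG or AGGAAG on both strands, was found in 5 of the 9 peaks, or 55.6% (21.2 to 86.3%), as compared with 41.2% of all Runx1 peaks. It was also found in 8 of the 18 flanking windows (44.4%), as compared with 25.2% of the flanking windows of all Runx1 peaks. Of the 9 peaks, 4 held both TGTGGT and an ETS match (44.4%, 13.7 to 78.8%), as compared with 12.9% of all peaks. In the peak of Fli1 intron 1 nearest to the TSS, 1 base separated ACCACA (32346971 to 32346976) from CTTCCT (32346978 to 32346983), the latter being AGGAAG on the minus strand. An equal or smaller gap was found in 25 of all 3531 peaks, and this spacing was examined after the positions were known. The gap was 26 bp in the peak downstream of Ets1 and 74 bp in the peak inside it. The ETS match of the latter began at 32553618, before the start of the printed sequence. The Ikaros motif TGGGAA was found in 2 peaks, in Fli1 intron 4 and between Fli1 and Ets1, which are the peaks with neither TGTGGT nor TGCGGT. Its share of 22.2% (2.81 to 60.0%) was near the 17.5% of all Runx1 peaks. It was also found in 3 of the 18 flanking windows (16.7%), as compared with 18.5% of the flanking windows of all Runx1 peaks. The match between Fli1 and Ets1 began at 32379325, before the start of the printed sequence. The E box CANNTG was found in 7 of the 9 peaks (77.8%) and in 73.6% of all peaks.

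**Figure D3:**
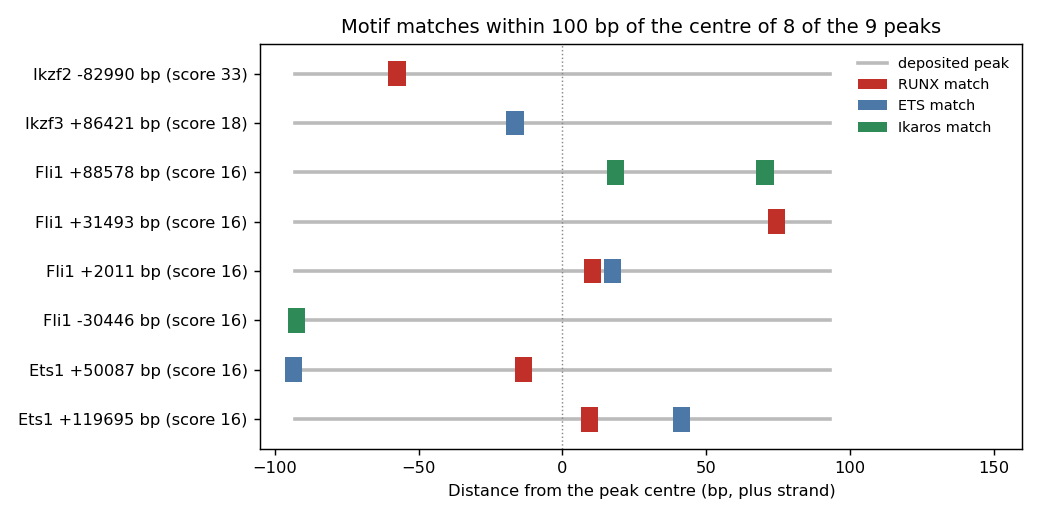
Positions of RUNX (TGTGGT), ETS and Ikaros motif matches in 8 of the 9 peaks, in bp from the peak centre on the plus strand, with the peak named by gene, distance from the nearest TSS of the gene (minus is upstream) and score. Red boxes, the RUNX matches, appear in 5 of these 8 peaks, and in the Fli1 peak at 2011 bp a red and a blue box are separated by 1 base.

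The GC content of the 9 peaks ranged from 50.8 to 55.6%, with a median of 54.0%, which was also the median of all Runx1 peaks (range 25.7 to 73.3%). The 32 bases at the centre occurred 1 time in the genome for each of the 9 peaks. In place, which the choice of peaks near genes bears on, 1 lay within 5 kb of a protein-coding TSS (11.1%), 4 in introns farther away (44.4%) and 4 between genes (44.4%), as compared with 28.3%, 26.2% and 43.0% of all peaks. None of the 9 lay in an exon, as compared with 2.58% of all peaks. None of the 740 input peaks lay in any of the 8 windows, and the input peak nearest to one of the 9 Runx1 peaks was 93603 bp from the Ets1 downstream peak. Since input peaks were rare, at 0.278 per Mb of the genome against 2.21 Mb of windows, this count says little about the background at these genes.

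The motif itself was far more frequent than peaks. The windows held from 171 copies of TGTGGT on both strands (Gabpa) to 274 (Elf1). Among the genes with a peak, 3 of 261 copies lay at a peak at Fli1, 3 of 229 at Ets1, 1 of 228 at Ikzf2 and 0 of 271 at Ikzf3. The copy in the peak near the Fli1 TSS is counted for both Fli1 and Ets1. In the region from 250 bp upstream to 50 bp downstream of the 5′ end of the gene, TGTGGT was found for Ets1 alone among the 8 (12.5%), as compared with 15.3% of all protein-coding genes.

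The density of peaks over the merged windows of the 8 genes was 4.08 per Mb (exact Poisson 95% interval 1.86 to 7.74), as compared with 1.65 per Mb (1.59 to 1.71) over the windows of all protein-coding genes and 1.33 per Mb over the genome. The merged windows of Fli1 and Ets1, the genes of the 8 with the most peaks, held 13.1 peaks per Mb. Since these genes were set apart by their counts, a lower density at the rest follows from the split. Without Fli1 and Ets1, 2 peaks remained in 1.67 Mb, or 1.20 per Mb (0.145 to 4.32), and 1 of these peaks held TGTGGT. The same rule gave 4.83 per Mb (1.94 to 9.96) for the RUNX family genes and Cbfb, which encode Runx1 itself, its paralogs and their common partner, and 3.42 per Mb (1.38 to 7.06) for the E protein and Id genes. All 3 intervals overlap, and the genes compared differ in length. The median score was 18 for the 7 peaks of the RUNX genes and 21 for the 7 peaks of the E protein and Id genes. TGTGGT was found in 1 and in 2 of these peaks, respectively.

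**Figure D4:**
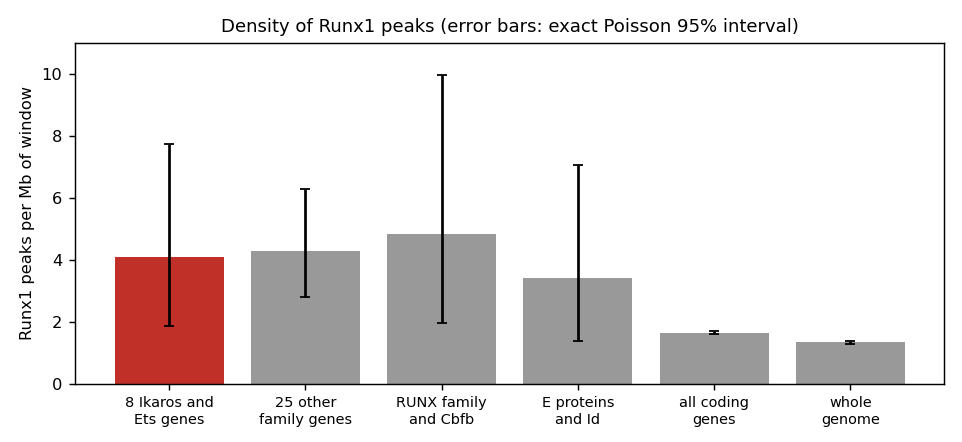
Runx1 peaks per Mb of merged windows for the 8 genes (red) and for other sets (grey). In grey are 25 other genes (Ikaros and Ets families with GABP partners), the RUNX family with Cbfb, and the E protein and Id genes. All protein-coding genes and the whole genome are also in grey. Error bars are exact Poisson 95% intervals, which cover counting error only. The 8 genes are at 4.08 per Mb, with an interval that overlaps those of the other 3 sets of named genes.

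Among 25 other genes of the Ikaros and Ets families and GABP partners, 17 had a peak in their window (68.0%), as compared with 38.5% of all protein-coding genes, and the 26 peaks gave a density of 4.28 per Mb (2.80 to 6.27). A peak lay within 5 kb of a TSS for 6 of the 25 (24%), as compared with 5.12% of all protein-coding genes. These were Etv1, Elf2, Elk4, Spib, Gabpb1 and Gabpb2. The peak centres were 118 bp from a TSS of Etv1, 45 bp from Elk4 and 80 bp from Gabpb1, the last of which encodes a partner subunit of Gabpa. Their scores were 16, 16 and 21, and none of the 3 held TGTGGT within 100 bp of the centre. The near peaks of Elf2 and Spib held none either, while that of Gabpb2, with a score of 16, held a match. Gabpb2, another partner subunit of Gabpa, also had a peak with a score of 51 in its window, the highest at these 25 genes. Erf, a repressor of the Ets family, had 5 peaks, as many as Fli1, with the nearest 17483 bp from its TSS and none in its body. Ikzf4, which encodes Eos, had 2 peaks and Ikzf5, which encodes Pegasus, had none. Sfpi1, the name in this annotation of the gene for PU.1, had 2 peaks, the nearer one 39719 bp upstream, and Erg, a close relative of Fli1, had none. The share of these 26 peaks with TGTGGT was 19.2% (6.55 to 39.4%), as compared with 66.7% (29.9 to 92.5%) of the 9 peaks. The intervals overlap, which does not show that the shares are alike, and the difference was not tested.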

How the data were processed

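The authors deposited 1 list of called peaks for each of the Runx1 ChIP and input libraries, with mm9 positions and a score per peak. HOMER is named in the submitters' processing notes, while the aligner, what the score measures and how input peaks were obtained are not given in the sources used here. The score deposited by the authors was used only to describe and rank peaks. Starts were shifted to count from 1, and peaks were placed on the NCBIM37 genome and GENCODE annotation vM1. All Runx1 peaks but 1 are 187 bp wide.

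Peaks were assigned by their centre, motifs were searched on both strands of NCBIM37, and TSSs were those of protein-coding transcripts. Shares have exact Clopper-Pearson 95% intervals, and densities exact Poisson intervals. With 1 library per condition no test was made. The genes, lists and motifs were chosen with earlier results of these data known. The genes named were the 8 members with every peak in their window, and the other family genes with the GABP partners. Genes whose TSS was nearest to a peak in the window of a member were also named. Ikzf5, Erg and the genes next to peaks outside the windows were named after their values were seen. Sequences printed were those of the peaks with the highest score for their gene, ties included, those within 5 kb of a member TSS and those with TGTGGT, except for 1 peak in Fli1 whose sequence, position and motif positions are not reported here. FPKM of the study's tables were not used here. Window counts and motif search were tested on simulated data, in which 100% of 200 windows and of 200 implanted motifs were recovered. Alternatives changed the window, the position, the score, input peaks, the gene span, the nearest gene and the motif. Python 3.11.15, numpy 2.4.6 and scipy 1.17.1 were used.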

Additional observations from a re-analysis of the deposited data

How the results depend on the processing

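Of the 36 values computed under alternative settings, 23 stayed within 1.5 times the count or within the interval of the value reported, and 13 moved. With 200 kb on each side, 18 peaks were counted, or 4.99 per Mb, and 7 of the 8 genes had at least 1, Gabpa being the exception. Over all protein-coding genes, the median distance from a TSS to a peak was 177394 bp, which is less than 200 kb. The share of all protein-coding genes with a peak was not computed for windows of 50 or 200 kb. With peaks scored above the median of the list, and likewise with those in its upper quartile, 1 peak at 1 gene (Ikzf2) was left. It gave a density of 0.453 per Mb, a median score of 33 and a share with TGTGGT of 100%. When a peak counted only for the gene with the nearest coding TSS, 2 genes, Fli1 and Ets1, had a peak. With 50 kb on each side, 7 peaks at 3 genes were counted, and the share with TGTGGT was 57.1%. The share was 55.6% with 200 kb. No replicate could be left out. No paired analysis was possible because there is a single library in each condition. The lists hold no read counts, so what depth limits cannot be stated beyond the scores.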
